A study of Homo sapiens with 26 samples.

Results

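SEMA6A and 9 related genes of the semaphorin and plexin families (SEMA3A, SEMA3B, SEMA3C, SEMA3F, SEMA4B, SEMA5B, SEMA6B, PLXNA2 and PLXNA4) were followed across expression arrays of a kidney cancer line. The line, 786-O, comes from a clear cell tumour, makes no working VHL protein and therefore keeps HIF-2a constantly active. They are 10 of the 19775 genes that have a probe set naming 1 gene only on the array. SEMA6A was chosen by its array signal, which was lower with the compounds and in WT8, so its values are described below without a test. The other 9 members were taken by name, with earlier results of these data known.

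The study measured total RNA on 26 Affymetrix U133 Plus 2.0 arrays. The labels give 8 groups of 3 arrays, named Blk, DMSO, 40, 41, 76, 77, PRC3 and WT8, and 1 array each for pTR and pTV. The series text names cells left alone, cells given the vehicle DMSO and cells given each of 4 compounds that block HIF-2a. Blk is read here as the cells left alone and 40, 41, 76 and 77 as the compounds, because no other label could stand for them. Doses and treatment times were not given in the sources used here, so a difference between compounds is a difference between these arrays as labelled. PRC3 and WT8 are names in wide use for 786-O sublines that carry, in turn, a vector without insert and VHL; the labels do not say so, and each name would then stand for 1 clone. The meaning of pTR and pTV was not given in the sources used here. Whether a group's 3 arrays stem from 3 separate cultures is in no label, so p-values cover the scatter of these arrays only, and that scatter may be technical.

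Semaphorins are guidance proteins, some secreted and some held in the membrane, and plexins are their main receptors. Secreted semaphorins of the SEMA3 group usually need a neuropilin, NRP1 or NRP2, to hold them to a plexin, while SEMA6A and SEMA6B sit in the membrane and bind A-type plexins such as PLXNA2 and PLXNA4 directly. Bound plexins act on small GTPases and on the cytoskeleton, and several family members are known for effects on blood vessels and tumour cell movement. In cells without VHL, HIF-2a escapes degradation and switches on genes such as VEGFA, the main vessel growth factor, and CCND1, which drives the cell cycle.

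Hypoxia-inducible factors bind DNA at the core letters ACGTG or GCGTG, so these were searched on both strands of the 300 bases around each RefSeq start (250 before and 50 after, GRCh38.p14), where a CACGTG would match on both strands. Of all 35116 windows, 48.4% held at least 1 of them. The table held 18 windows of 7 members, and 6 of the 18 held a motif, all in SEMA3B and PLXNA4. No window was held for SEMA6A, SEMA3A or SEMA6B, so these genes were not searched for the motif. None of the 3 windows of SEMA4B, the 2 of SEMA3C, the 3 of SEMA3F, the 3 of SEMA5B or the 1 of PLXNA2 held these letters, which says only that the letters are not in those windows. A stretch around 1 ACGTG of a SEMA3B window and of the PLXNA4 window is shown with that ACGTG in capitals, since these are the members in which a motif was found; the cacgc just before it in PLXNA4 is a GCGTG on the opposite strand.
SEMA3B, chr3:50260057-50260081, plus strand: cgcggcctgaACGTGtgggggcggg
PLXNA4, chr7:132576501-132576525, minus strand, motif read on the opposite strand: cgcacacgcaCACGTtcagaggagg
Both genes lay near the lowest signals that the arrays could tell apart, as given below.

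The markers of a renal carcinoma line that were checked had signal on all 24 replicated arrays, except CA9, which had no probe set naming 1 gene only. PAX8, a renal lineage factor, ran from 761 to 1270.0 over the 24 replicated arrays and VIM, an intermediate filament, from 7208 to 8708, where all signals are quantile normalized and set to a floor of 20. Of the endothelial, leukocyte, fibroblast and neuronal markers checked, VWF, PTPRC and CD14 were at the floor on all 24 arrays and CDH5 and COL3A1 reached 22.5 at most, while PECAM1 (45.5 to 117), COL1A1 (30.3 to 145) and SNAP25 (47.3 to 118) were above it. The rest ran from the floor up to 54.8 for MAP2, 51.9 for RBFOX3, 45.7 for DCN, 32.5 for SYP and 31.1 for CD3E. In the 26 deposited columns the total signal was within 0.01% of 7806813 in 24, while those of compound 40 replicates 2 and 3 were 1.16 and 1.22 times that value. CCND1 signal was 9.50-fold lower in WT8 than in PRC3 (log2 change -3.25, SE 0.19, limma adjusted p = 2.54e-10). VEGFA was 6.23-fold lower (limma adjusted p = 3.63e-06). VHL, the gene that WT8 would carry, was not called in WT8 against PRC3 (log2 change 0.15, SE 0.27, limma adjusted p = 0.886). Its signal therefore did not show the insert that the name WT8 stands for. These p-values are from limma's moderated test with Benjamini-Hochberg adjustment over 35013 probe sets.

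SEMA6A was among the members with a clear signal in untreated cells and was low wherever a compound had been given, in WT8 and on the pTR array. Probe set 225660_at, brightest of the 5 by its log2 signal averaged across 24 arrays, gave 423, 394 and 555 on the Blk arrays and 527, 453 and 489 on the DMSO arrays. It gave 68.1, 45.5 and 68.0 with compound 41, 97.3, 34.8 and 81.5 with compound 76, and 158, 43.2 and 80.4 with compound 77. With compound 40 it gave 271, 105 and 142. Every array with a compound was below every DMSO array, and among the compounds the highest array was one of compound 40. On the PRC3 arrays the signal was 738, 491 and 221, and on the WT8 arrays 121, 83.8 and 65.3. The PRC3 arrays were spread over a wide range, but the lowest of them was still above the highest WT8 array. The pTV array read 421 and the pTR array 48.8.

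**Figure D1:**
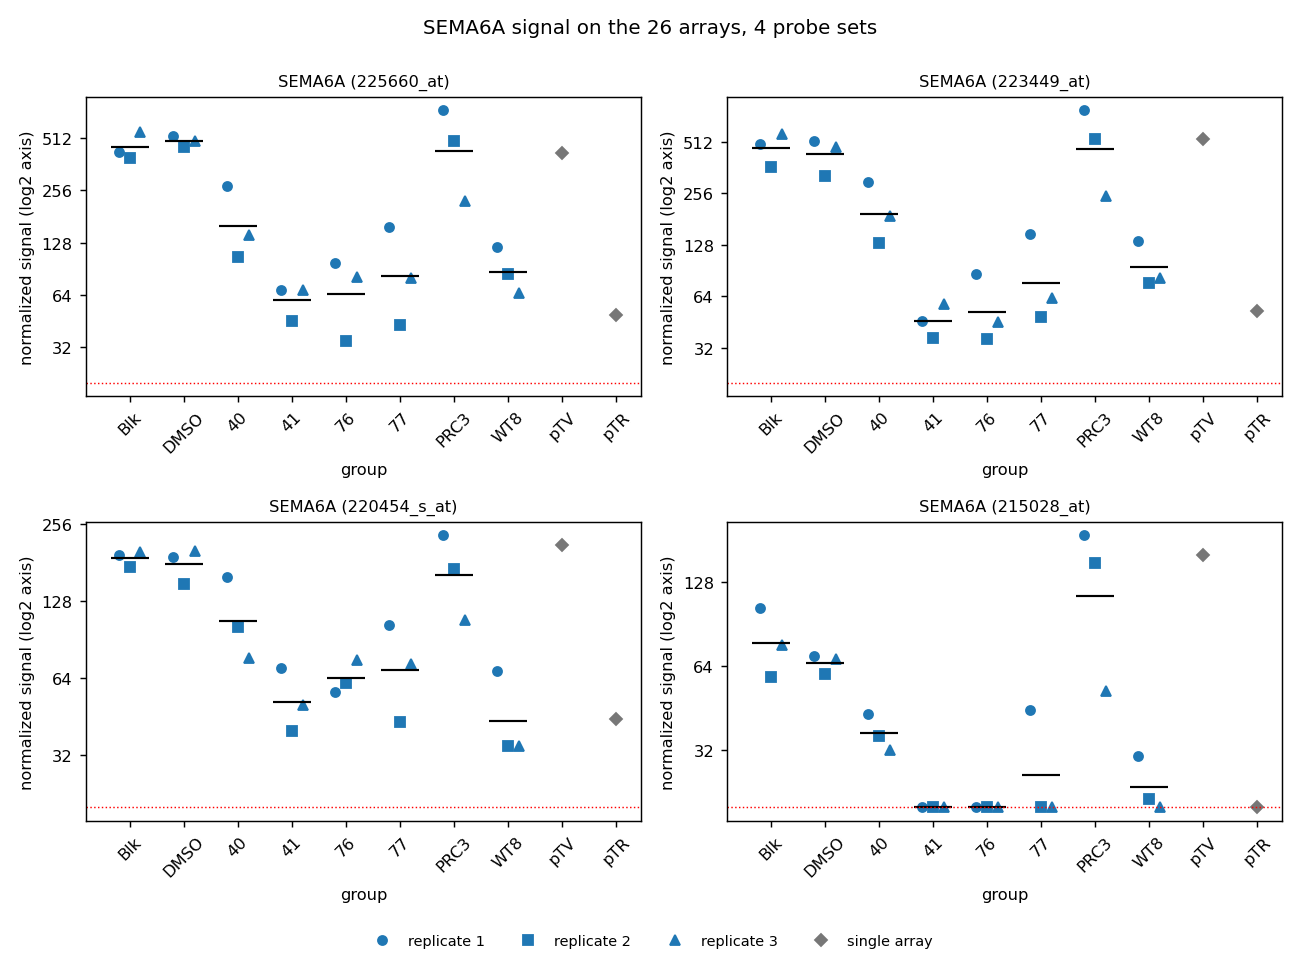
SEMA6A signal (log2 axis, normalized signal) by group for the 4 probe sets that passed the filter; symbols are replicate numbers, black lines are means of the log2 signals of 3 arrays, grey diamonds are single arrays and the dotted red line is the floor of 20. In the top left panel (225660_at) the DMSO arrays lie between 453 and 527 and the compound 41 arrays between 45.5 and 68.1.

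As group means, 225660_at stood at 489.7 ± 37.0 (SD, n = 3) in DMSO, 483 ± 259 in PRC3 and 457 ± 85.5 in Blk, then at 173 ± 86.9 with compound 40, 93.9 ± 58.7 with compound 77, 89.9 ± 28.1 in WT8, 71.2 ± 32.5 with compound 76 and 60.5 ± 13.1 with compound 41. Neighbours in this order overlapped, except Blk and compound 40, whose arrays did not. Signal was 8.22-fold lower with compound 41 than with DMSO (log2 change -3.04, SE 0.44), 7.51-fold lower with compound 76 (-2.91), 5.97-fold lower with compound 77 (-2.58) and 3.06-fold lower with compound 40 (-1.62). WT8 was 4.95-fold below PRC3 (-2.31). DMSO against Blk and PRC3 against Blk gave 0.11 and -0.07 on the log2 scale, so neither the vehicle nor the PRC3 name went with a shift of that size.

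The other tested probe sets of SEMA6A put the compounds in the same order or, at the floor, could not separate 41 from 76. For 223449_at the changes were -3.23 with compound 41, -3.06 with compound 76, -2.50 with compound 77, -1.16 with compound 40 and -2.31 in WT8 (SE 0.42). The dimmer 220454_s_at gave -1.79, -1.48, -1.38, -0.74 and -1.90 in that order (SE 0.33), and its compound 40 arrays overlapped those of DMSO. The dimmest, 215028_at, read 69.5, 60.3 and 67.8 in DMSO and was at the floor on all 3 arrays of compounds 41 and 76, at least 3.29-fold lower, with 2 of 3 compound 77 arrays and 1 of 3 WT8 arrays there too. The last, 1558338_at, was at the floor on all 26 arrays. On the single arrays, pTR lay below pTV by 8.62-fold, 10.1-fold and 4.76-fold for 225660_at, 223449_at and 220454_s_at, and 215028_at read 161 on pTV and the floor on pTR. These arrays have no replicate, and 11.7% of all tested probe sets differed between them by 2-fold or more. Among the other members, SEMA3A, SEMA3F 209730_at and SEMA6B 220778_x_at were 2-fold or more higher on pTR, as were 5.76% of all probe sets.

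Between compounds, SEMA6A with compound 40 was above SEMA6A with compounds 41 and 76 with no overlap of arrays in all 4 probe sets, by 2.68-fold and 2.45-fold for 225660_at. For 220454_s_at the gap was narrow, with 76.7 the lowest compound 40 array and 75.2 the highest compound 76 array. The share of all tested probe sets that separate likewise was not counted, here or for other groups said not to overlap. Arrays of compounds 41, 76 and 77 overlapped with each other, as did those of compounds 40 and 77. With compound 40 replicate 1 alone, 225660_at differed from DMSO by -0.85 and 223449_at by -0.55 on the log2 scale. The compound 40 arrays then left out were those whose deposited totals stood apart. Replicate 1 was also the highest SEMA6A array of its group in 7 of 8 groups for 225660_at, 6 for 223449_at, 5 for 220454_s_at and 6 for 215028_at, whose other 2 groups were tied at the floor. Array totals and replicate number therefore cannot be told apart with compound 40.

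Among the secreted semaphorins, SEMA3C was bright and varied widely within groups. SEMA3C codes for a neuropilin-dependent ligand known for roles in vessel and heart development. Its brighter probe set, 203789_s_at, gave 632, 1492 and 1171 in Blk and 491, 1682 and 949 in DMSO. It gave 157, 372 and 323 with compound 40, 283, 519.6 and 365 with compound 41, 207, 564 and 480.4 with compound 76, and 637, 929 and 765 with compound 77. In this probe set replicate 1 was the lowest array of its group in 8 of 8 groups, and only the compound 40 arrays lay wholly below those of DMSO. In the dimmer 203788_s_at the arrays of compounds 40 (81.3 to 128), 41 (95.5 to 113) and 76 (84.5 to 132) all lay below DMSO (148 to 325). Group means of 203789_s_at were 284 ± 113 with compound 40 and 1040.5 ± 601 with DMSO (SD, n = 3), a log2 difference of -1.79 (SE 0.52, limma adjusted p = 0.126).

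With compounds 41 and 76 the SEMA3C call turned on whether the replicate number was added to the fit. The differences from DMSO were -1.29 and -1.27 on the log2 scale, with limma adjusted p of 0.247 and 0.345. In these comparisons same-numbered arrays deviated together, and once the replicate number was added as a block, limma gave adjusted p-values of 0.00880 and 0.0147. The dimmer probe set 203788_s_at gave -0.97 and -0.93, with blocked adjusted p of 0.0251 and 0.0474. Ratios of same-numbered arrays for 203789_s_at were 0.577, 0.309 and 0.384 with compound 41 and 0.422, 0.335 and 0.506 with compound 76. All were below 1, but both compounds were divided by the same DMSO arrays. The share of all tested probe sets with such ratios was not counted. In PRC3 (267, 722 and 1342) and WT8 (390.0, 638 and 1264) SEMA3C overlapped over almost the whole range, with a log2 difference of 0.09 (95% interval -0.99 to 1.18, limma adjusted p = 0.979).

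**Figure D2:**
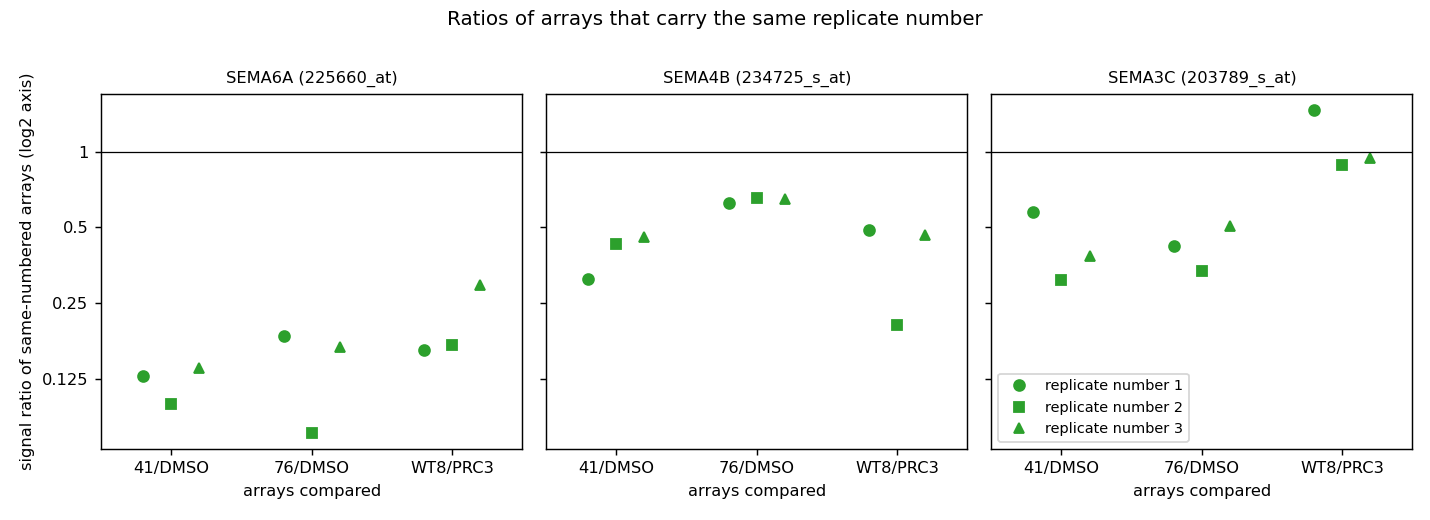
Ratio of the signal on arrays that carry the same replicate number (log2 axis; 1 means no difference) for SEMA6A, SEMA4B and SEMA3C, in the 3 comparisons shown, whose same-numbered arrays deviated together; each symbol is 1 pair. SEMA3C ratios lie between 0.309 and 0.577 with compounds 41 and 76, and between 0.884 and 1.46 for WT8 over PRC3.

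SEMA3A, the founding secreted semaphorin, which signals through NRP1 and A-type plexins, was dim throughout and higher in WT8. Probe set 206805_at gave 21.1, 31.4 and 37.1 in PRC3 and 56.3, 76.0 and 49.0 in WT8, with no overlap. The rise was 2.05-fold (log2 change 1.03, SE 0.29, limma adjusted p = 0.0431). It was lost when PRC3 replicate 1 or 2 or WT8 replicate 1 or 2 was left out, with adjusted p up to 0.202, as well as with median scaling, without the filter and with only PRC3 and WT8 fitted, and with floor 50 the change was 0.26. The compound arrays were not called against DMSO: DMSO gave 37.8, 38.4 and 24.7 and compound 77 gave 38.5, 57.0 and 61.8, just above all of DMSO (log2 change 0.64, adjusted p = 0.626 by limma). The pTR array read 135, the highest SEMA3A signal on any of the 26 arrays, and the pTV array 24.2. The other 2 SEMA3A probe sets did not pass the filter and read 20.3 at most.

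SEMA3F, a ligand of NRP2 that repels endothelial and tumour cells in culture, also rose in WT8. Probe set 35666_at gave 125, 91.3 and 63.9 in PRC3 and 158, 164 and 157 in WT8, so the WT8 arrays were tightly grouped above all of PRC3. The change was 1.77-fold (log2 0.83, SE 0.23, limma adjusted p = 0.0410), and the call held in 1 of 6 fits that left out an array, the one without PRC3 replicate 1. It was also lost with signals as deposited, with median scaling, without the filter and with only the 2 groups fitted (adjusted p up to 0.306). With compounds its log2 differences from DMSO lay between -0.31 for compound 40 and 0.09 for compound 77, and none was called. The second probe set, 209730_at, gave 24.1, 29.3 and 20.0 in PRC3 and 30.0, 31.4 and 48.2 in WT8 and was not called (0.56, limma adjusted p = 0.481). A further probe set, 206832_s_at, was at the floor on all but 2 of the 24 arrays. On the single arrays 35666_at read 191 on pTR and 109 on pTV, and 209730_at 57.3 and 25.1.

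SEMA3B, a secreted semaphorin often described as a tumour suppressor, was above the floor on 8 of 24 arrays and reached 39.5 at most. Its DMSO arrays read 39.5, 28.3 and 30.5, while all 3 Blk, all 3 compound 41 and all 3 PRC3 arrays were at the floor. Neither DMSO against Blk (at least 1.62-fold, limma adjusted p = 1.00) nor compound 41 against DMSO (at least 1.62-fold lower, adjusted p = 0.0747) was called.

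Among the membrane semaphorins, SEMA4B was bright and changed in more than 1 comparison. The 234725_s_at signal was 1178, 1211 and 1082 in Blk and 1029, 903 and 850.2 in DMSO. It was 322, 386 and 391 with compound 41, 643, 590.3 and 552 with compound 76, 884, 577 and 619 with compound 77, and 853, 662 and 660.4 with compound 40. Compound 41 gave the lowest arrays by a wide margin, those of compound 76 also lay wholly below DMSO, and those of compounds 40 and 77 overlapped it. SEMA4B fell 2.53-fold with compound 41 (366 ± 38.3 against 927 ± 91.8, SD, n = 3; log2 change -1.34, SE 0.28, limma adjusted p = 0.00716). Without compound 41 replicate 1 the adjusted p was 0.0502. With compound 76 the log2 change was -0.64 (adjusted p = 0.385), with compound 77 -0.44 (0.787) and with compound 40 -0.36 (0.663, limma).

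In PRC3 the SEMA4B signal was 1162, 1155 and 512, and in WT8 569.7, 238 and 239.7. PRC3 replicate 3 stood well below the other two and overlapped WT8 replicate 1, while same-numbered arrays gave WT8 over PRC3 ratios of 0.490, 0.206 and 0.468. SEMA4B fell 2.76-fold in WT8 (log2 change -1.47, SE 0.28, limma adjusted p = 0.00177), and the call held in 6 of 6 fits that left out an array. It was lost when only PRC3 and WT8 were fitted (adjusted p = 0.335). The pTV array read 1199 and the pTR array 661, a log2 ratio of -0.86.

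**Figure D3:**
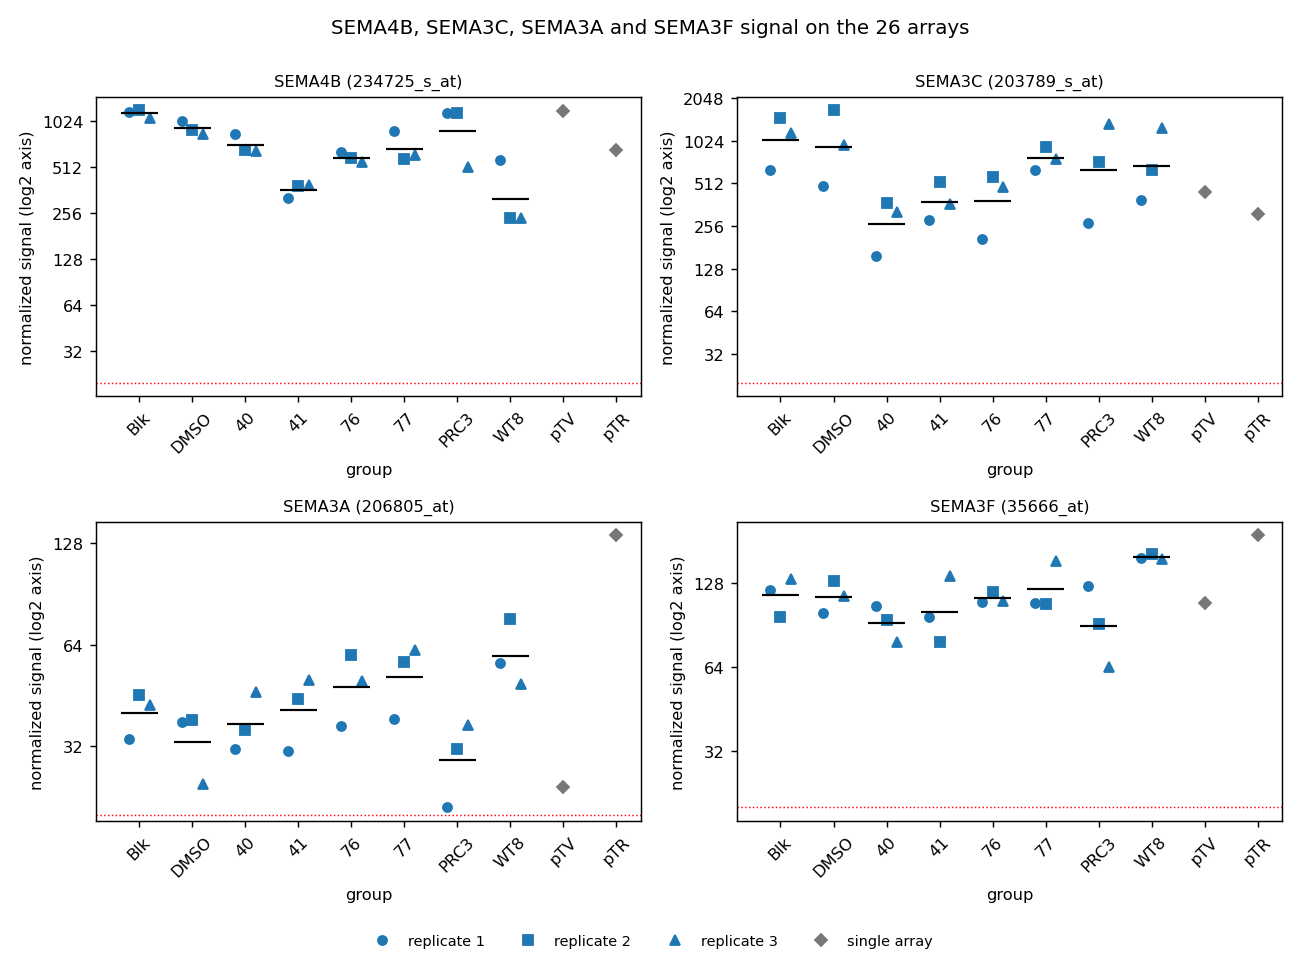
Signal (log2 axis, normalized signal) by group for SEMA4B, SEMA3C, SEMA3A and SEMA3F; symbols are replicate numbers, black lines are means of the log2 signals of 3 arrays, grey diamonds are single arrays and the dotted red line is the floor of 20. SEMA4B lies between 322 and 391 with compound 41, and the SEMA3F arrays of WT8 lie between 157 and 164.

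SEMA5B, a membrane semaphorin with thrombospondin repeats, had a wide spread within groups and was not called in any comparison. Probe set 223610_at gave 158, 44.1 and 107 in DMSO, 43.9, 47.2 and 20.0 with compound 41, 49.9, 20.0 and 20.0 with compound 76, and 21.9, 20.0 and 70.6 with compound 77. These compound groups overlapped DMSO, and the log2 differences were -1.39, -1.74 and -1.53 (SE 0.62, limma adjusted p of 0.314, 0.229 and 0.531). Compound 40 gave 121, 67.5 and 78.5, a log2 difference from DMSO of -0.07 (limma adjusted p = 0.994). Its arrays lay wholly above those of compounds 41 and 76 (log2 1.32 and 1.67, limma adjusted p = 0.401 and 0.369). PRC3 gave 362, 231 and 116 and WT8 114, 23.6 and 107. Here the groups just failed to overlap, with a log2 difference of -1.69 (adjusted p = 0.141, limma). On the single arrays SEMA5B read 258 on pTR and 147 on pTV, so pTR was the higher, where SEMA6A was lower on pTR.

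SEMA6B, the close relative of SEMA6A, was dim and was not called in any of the 7 comparisons. Its 2 tested probe sets lay between 20.3 and 70.4 (224182_x_at) and between 20.0 and 47.1 (220778_x_at) over the 24 arrays. Probe sets of the x_at kind can bind other transcripts, so these signals may not be SEMA6B alone. The log2 difference of 224182_x_at was -0.73 with compound 41 (limma adjusted p = 0.331) and 0.19 in WT8 (0.877). The A-type plexins that serve as SEMA6A receptors were at the limit of detection. PLXNA2 reached 47.5 on 1 array (207290_at, which did not pass the filter) and 31.6 in its tested probe set, and PLXNA4 reached 34.1. Neither plexin was called, and a floor of 20 leaves little room to measure a change in them.

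Counted over the 12 tested probe sets of the 9 members other than SEMA6A, 3 were called in WT8 against PRC3, 1 lower (SEMA4B) and 2 higher (SEMA3A and SEMA3F), where 4.56% of all 35013 tested probe sets were called, 2.21% lower and 2.35% higher. With signals scaled by the median of each array, 742 lower and 442 higher calls were made over all probe sets, in place of 775 and 822, and SEMA4B alone of these members was called. With compound 41, 1 was called (SEMA4B, lower), where 2.54% of all probe sets were called, and 3 with the replicate block, where 4.36% were. With compound 76, 0 were called (all probe sets 1.35%) and 2 with the block (2.42%), both of SEMA3C. With compounds 40 and 77, 0 of 12 were called, against 0.685% and 0.171%. PRC3 against Blk gave 0 of 12 (all probe sets 1.03%) and DMSO against Blk 0 of 12. In DMSO against Blk limma called 0 of all probe sets (0%), while 2.27% had an unadjusted p below 0.05.

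**Figure D4:**
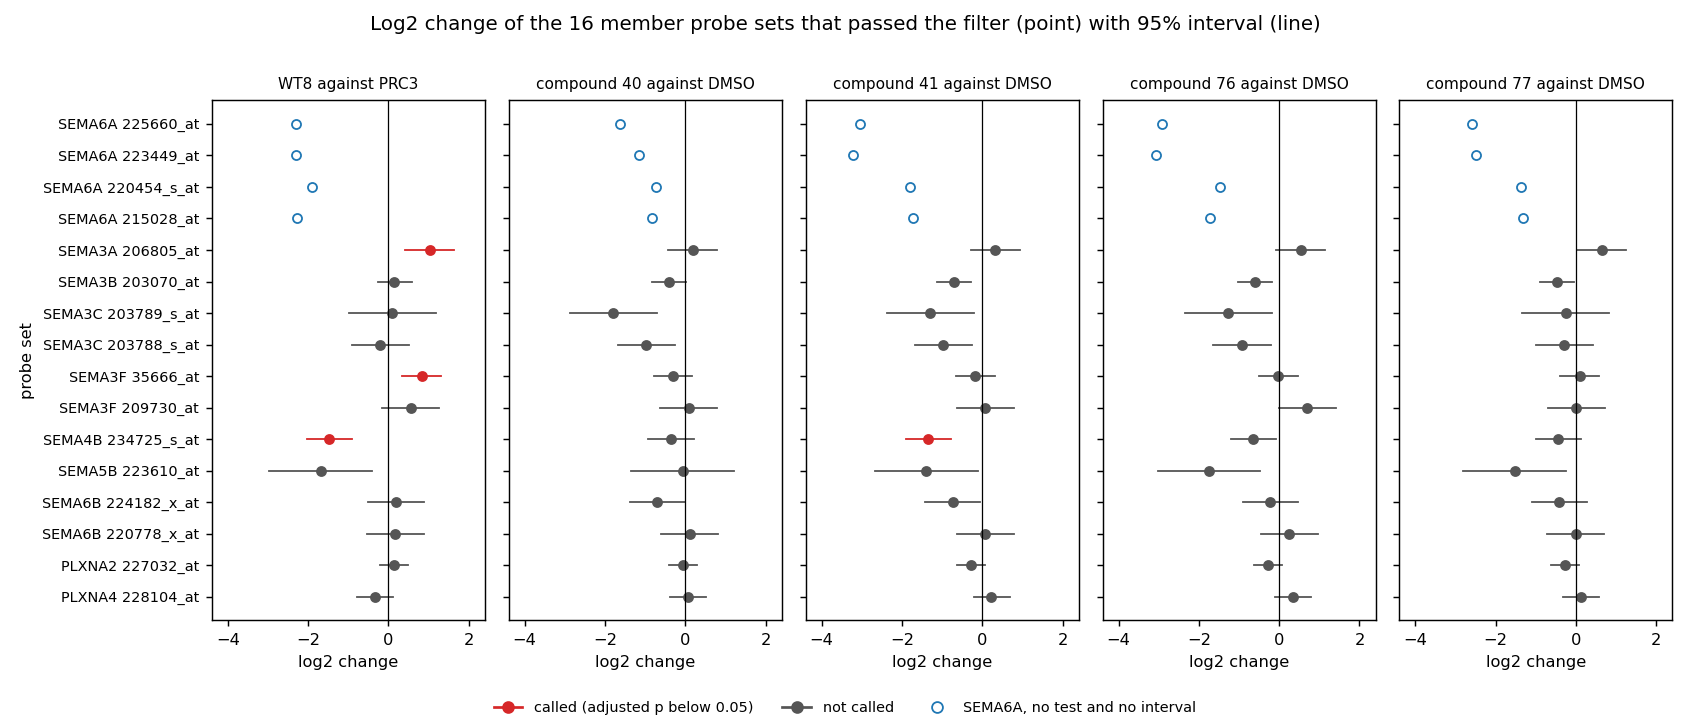
Log2 change of the 16 member probe sets that passed the filter in 5 comparisons; filled points are limma estimates with 95% intervals (red where called at an adjusted p below 0.05, grey where not), and open blue points are SEMA6A, given without interval or test. SEMA4B is the member called in 2 panels, at -1.47 in WT8 and -1.34 with compound 41.

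The compounds were also set against each other in all 6 pairs, which makes 72 tests of the 12 probe sets. None was called, either within each pair, where 0.591% of all probe sets were called for 40 against 41, 0.126% for 40 against 76, 0.440% for 40 against 77, 0.111% for 41 against 76, 0.451% for 41 against 77 and 0.474% for 76 against 77, or with p-values adjusted over the 6 pairs together. The smallest adjusted p was that of SEMA4B for compound 40 against 41 (log2 difference 0.98, 95% interval 0.41 to 1.55, limma adjusted p = 0.117 within the pair and 0.168 over the pairs). For SEMA4B the interval of compound 41 against 77 was -1.47 to -0.33 and that of 40 against 77 was -0.49 to 0.65. For SEMA3C, 203789_s_at was lower with compound 40 than with 77 with no overlap (-1.53, 95% interval -2.61 to -0.45, limma adjusted p = 0.231), and for 41 against 76 the interval was -1.10 to 1.06. The last interval takes in 2-fold differences in both directions.

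In the rest of the family few genes were called. Of 21 other semaphorins, plexins and neuropilins, 18 had a tested probe set, and 1 was called in PRC3 against Blk and 1 with compound 41, where 1.39% and 3.34% of all 15124 tested genes were called. NRP2, the receptor of SEMA3F, fell 2.16-fold with compound 41 (70.1 ± 8.87 against 151 ± 18.0, SD, n = 3; log2 change -1.11, SE 0.22, limma adjusted p = 0.00572), a call that held in 6 of 6 fits that left out an array. NRP1, the receptor of SEMA3A, was higher in PRC3 than in Blk (462 ± 191 against 184 ± 25.2; log2 change 1.23, limma adjusted p = 0.0183). The NRP1 call was lost without Blk replicate 1 or 2 or PRC3 replicate 1 or 2, with adjusted p up to 0.126. With the replicate block, where 5.69% of genes were called with compound 41 and 3.21% with compound 76, SEMA5A, a membrane semaphorin, was also lower with compound 41 (62.5 ± 5.94 against 122 ± 13.4; -0.96, blocked limma adjusted p = 0.0362) and compound 76 (61.0 ± 19.6; -1.04, 0.0329). The median log2 change of the 18 genes was -0.21 in WT8, where that of all genes was 0.01, with 14 of 18 below 0, and lay between -0.06 and 0.08 in the other 6 comparisons.

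Of 34 partners and signalling proteins of plexins, 28 were tested, and 2 fell in WT8, where 2.71% of all genes were called lower. DPYSL2, the collapsin response mediator that carries SEMA3A signals to microtubules, fell 2.27-fold (121 ± 28.7 against 269.9 ± 33.3, SD, n = 3; log2 change -1.18, SE 0.19, limma adjusted p = 0.000422), and the call held in 6 of 6 fits that left out an array. EVL, an actin regulator of the Ena/VASP family, fell 2.02-fold (-1.02, SE 0.24, limma adjusted p = 0.0135), a call lost without WT8 replicate 1 or 2 or PRC3 replicate 3. With the replicate block, where 8.71% of genes were called in WT8, the small GTPases RAC1 (-0.30, limma adjusted p = 0.0381) and RRAS (-0.72, 0.0428) were also lower in WT8, and FARP2, an exchange factor bound to plexins, was lower with compound 41 (-0.50, 0.0426). CDK5, a kinase of the SEMA3A pathway, was 2.13-fold lower in PRC3 than in Blk (114 ± 36.7 against 236 ± 7.96, limma adjusted p = 0.00872), and without PRC3 replicate 3 the adjusted p was 0.0512. No gene of this list was called with any compound against DMSO without the block. RRAS was lower with compounds 41 and 76 than with 77 (log2 -1.20 and -1.30, limma adjusted p = 0.0122 and 0.00597 within the pair, 0.0177 and 0.00892 over the 6 pairs), where 0.661% and 0.668% of genes were called within the pair. The RRAS difference between 41 and 77 was lost without compound 41 replicate 2 or compound 77 replicate 2 or 3, and that between 76 and 77 without compound 76 replicate 1. Fitted on the 2 groups alone, all of these unblocked list calls were lost, with limma adjusted p from 0.0501 for NRP2 to 0.337 for NRP1. Without the filter NRP1 and RRAS for 41 against 77 were lost as well, and with median scaling CDK5. The median change of the 28 genes lay between -0.14 and 0.05 over the 7 comparisons.

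The HIF-2a message itself, EPAS1, was not called in WT8 (log2 change -0.38, limma adjusted p = 0.489) or with compound 41 (-0.40, 0.526) or 76 (-0.57, 0.348), and read 344 on pTR and 789 on pTV. EPAS1 was also not called with compound 40 (-0.06, limma adjusted p = 0.971) or 77. VEGFA was lower with compounds 40, 41 and 76 (-1.30, -2.06 and -1.37, limma adjusted p = 0.0366, 0.000194 and 0.0156) and was not called with compound 77 (-0.29, 0.907), where SEMA6A stood 5.97-fold below DMSO. CCND1 was lower with compounds 40 and 41 (-0.97 and -1.10, limma adjusted p = 0.0158 and 0.00172). It was not called with compound 76 (-0.72, limma adjusted p = 0.0620) or 77 (0.10, 0.970).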

How the data were processed

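Signal intensities of 54613 probe sets on 26 arrays were deposited as MAS5 values, per the submitters' processing notes, with no version given; the authors' floor of 20, ceiling of 16000 and filter on low variation are in the labels' protocols. The intensities were quantile normalized over the arrays without 62 control probe sets, floored and capped at those limits and put on the log2 scale. A probe set was kept if it reached the median of the array on 3 or more of the 24 replicated arrays (35013). limma 3.58.1 in R 4.3.3 fitted 1 mean per group over the 24 replicated arrays (16 residual degrees of freedom, eBayes with trend), two-sided, with Benjamini-Hochberg adjustment and a threshold of 0.05; the procedure was tested on simulated data. SEMA6A had no test. Gene names came from the platform annotation, with 41091 probe sets of 1 gene, 1801 of several and 11721 of none. Lists used the brightest probe set per gene. Members and lists were chosen with earlier results of these data known. Up to 6 called genes per list and comparison were named, by size. Same-numbered arrays were taken as pairs where all 3 correlations of their deviations from group means were over 0.1: WT8 with PRC3 (lowest 0.107), DMSO with Blk (0.146), compounds 41 (0.172) and 76 (0.184) with DMSO, and 41 with 76 (0.105). The replicate block was a shared effect of each replicate number over all 24 arrays, also where this did not hold. The number of arrays limits the precision. Alternatives were scaling, filter, floor, variance trend, groups fitted, the replicate block and leaving out each array.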

Additional observations from a re-analysis of the deposited data

How the results depend on the processing

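The count of 3 member probe sets called in WT8 against PRC3 became 1 with median scaling, 1 with the filter of the labels, which tested fewer probe sets, and 0 when only the 2 groups were fitted, which leaves fewer arrays; leaving out 1 array gave 1 to 2. The replicate block gave 2 calls in place of 0 for compound 40 (SEMA3C, log2 -1.79 and -0.97, adjusted p = 0.00160 and 0.0483), 3 in place of 1 for compound 41, 2 in place of 0 for compound 76 and 2 in place of 0 over the compound pairs (SEMA4B for 40 against 41, adjusted p = 0.0335, and SEMA3C for 40 against 77, adjusted p = 0.00842, from limma). Same-numbered arrays of compound 40 and DMSO had a correlation under the cut of 0.1 (lowest 0.077), as did those of 40 with 41 (0.072) and 77 (0.072). That cut lies close to values that passed, such as 0.107 for WT8 with PRC3. For SEMA3C 203789_s_at the ratios of same-numbered arrays were 0.319, 0.221 and 0.341 for compound 40 over DMSO. With the block, RRAS was called for 40 against 77 (limma adjusted p = 0.0408). The block changed no other member call. For compound 41, leaving out 1 array gave 0 to 1 calls. The other 117 alternative counts were equal or within 1.5 times. Most main counts were 0, and for those an equal count means only that no call appeared. None of the single values recomputed (SEMA6A differences over 2 SE, and member or list values called with or without the block) changed direction. Floor 50 took SEMA6A 215028_at to -1.19 in WT8 and -0.40 with each compound, since its signals lie near the floor. Over all probe sets the WT8 calls numbered 1597, and 724 under the filter of the labels; the cause of the smaller counts under median scaling was not tested. The adjustment over 6 pairs was chosen after seeing the data.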

Other observations

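The genes whose pattern over the 8 groups was most like that of SEMA6A 225660_at were MAP3K21, PTGES, DEPP1, FABP6, FAM149A and ZNF395, out of 2316 genes whose group means spanned at least 2-fold. Pearson's r over the 8 group means ran from 0.947 for ZNF395 to 0.972 for MAP3K21, and over the 24 arrays from 0.801 for FAM149A to 0.932 for ZNF395. They are the highest of many and share the arrays with SEMA6A, so r is a description. MAP3K21, a kinase upstream of MAP kinases, had group means of 480.2 in DMSO and 165 with compound 41, and of 589.6 in PRC3 and 266 in WT8. FABP6, a bile acid carrier, averaged 96.4 in DMSO and 128 in PRC3 and was at the floor on average with compounds 41 and 76 and in WT8. PTGES, which makes prostaglandin E, averaged 102 in DMSO and 41.2 with compound 41. On the single arrays MAP3K21 read 607 on pTV and 251 on pTR and FABP6 read 209 and 20.0, while ZNF395 read 554 and 493, where SEMA6A differed by 8.62-fold.

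Besides SEMA6A, 4 members had group means that spanned at least 2-fold, and their r with SEMA6A over the 8 groups was 0.876 for SEMA5B, 0.813 for SEMA4B, 0.557 for SEMA3C and -0.742 for SEMA3A. The other 5 members were not compared in this way. The share of all compared genes with r as high was not counted, and SEMA6A was itself chosen for its pattern, so these r are descriptions only.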
